A study of Mus musculus with 23 samples.

Results

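The genes described here are 41 cell cycle and DNA replication genes, chosen by symbol out of the 53090 genes of each table, and followed through microglia, the macrophages that live in the brain. All 41 passed the filter on low counts, which kept 18720 genes. RNA of microglia from female C57BL/6 mice was sequenced in 23 libraries, and each n below counts libraries. The groups were young mice on control chow (Y, n = 7), young mice whose microglia had been depleted and had returned (Y-re, n = 3), old mice on control chow (O, n = 5) and old mice with depleted and returned microglia (O-re, n = 8). Depletion used PLX5622, an inhibitor of the receptor CSF1R on which microglia depend, given in AIN-76A chow at 1200 ppm. No genotype other than the strain was named. How old the mice were, how long they were treated and how long repopulation lasted is not given in the texts used. The RNA came from microglia sorted by flow cytometry, per the labels' extraction protocol, while another protocol text describes CD11b selection by magnetic beads followed by 7 days of culture. The labels do not say whether each library is 1 mouse, so p-values here measure the spread between these libraries.

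A dividing cell copies its DNA in S phase and separates the copies in mitosis. Before S phase, origins of replication are licensed by loading of the MCM helicase with the help of Cdc6 and Cdt1, and the E2F factors with cyclin E switch on the genes of replication. Later, FoxM1 and B-Myb switch on the mitotic genes, Cdk1 with the B-type cyclins drives entry into mitosis, and Cdc20 with the anaphase-promoting complex ends it. Microglia divide rarely in the healthy adult brain, and after depletion the surviving cells divide until the brain is refilled.

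The members fall into 6 roles. The mitotic kinases and cyclins are Ccna2, Ccnb1, Ccnb2, Cdk1, Plk1, Aurka and Aurkb, and the genes of the spindle checkpoint and anaphase are Bub1, Bub1b, Cdc20 and Ube2c. Chromosome structure, spindle and cytokinesis are served by Mki67, Top2a, Birc5, Cenpe, Cenpf, Kif11, Kif20a, Kif23, Tpx2, Nusap1 and Prc1. Origin licensing and the helicase take in Mcm2, Mcm3, Mcm4, Mcm5, Mcm6, Mcm7, Cdc45, Cdc6, Cdt1 and Gins2. Pcna, Rrm1, Rrm2 and Tyms form the replication clamp and supply nucleotides, and E2f1, Ccne1, Ccne2, Foxm1 and Mybl2 govern S-phase entry and mitotic transcription.

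Promoters of many mitotic genes carry a CHR element and CCAAT boxes, and those of many replication genes an E2F site, as textbook features, and these were looked for in the members. In RefSeq windows of 300 bases (GRCm38.p6, 250 before and 50 after each start), available for 33 of the 41 members, 3 motifs were searched on both strands. The CHR element was searched as TTTGAA, the CCAAT box as CCAAT, and the E2F site as TTTCCCGC, TTTCGCGC, TTTGCCGC or TTTGGCGC. Of 18 promoters of mitotic members, 13 held both a CHR element and a CCAAT box, a share of 72.2%, against 6.16% of 11497 tested genes with such a window. An E2F site lay in 6 of 12 promoters of the replication members (50.0%), in 1 of 18 of the mitotic members (5.56%) and in 4.34% of the tested genes. A CHR element together with a CCAAT box lay in 2 of 12 replication promoters (16.7%). The 3 promoters matched in the group of S-phase entry and mitotic transcription (E2f1, Ccne1 and Mybl2) held none of these letters, and neither did those of Birc5, Nusap1 and Tyms. A match is a match of letters only. The E2F letters TTTGGCGC and TTTCGCGC can overlap each other on opposite strands, as they do in Mcm5 and Mcm6. The 200 bases before the start are shown for 3 mitotic and 2 replication members, because they show both arrangements, with CHR elements, CCAAT boxes and E2F sites in capitals on either strand. Matches outside these 200 bases were counted but are not shown, such as a second CHR element of Ccnb2, at positions 4 to 9 from the start. Ccnb2 (chr9:70421555-70421754, minus strand) encodes cyclin B2, Top2a (chr11:99024190-99024389, minus strand) topoisomerase II alpha, and Mki67 (chr7:135716380-135716579, minus strand) the proliferation marker Ki-67. Mcm5 (chr8:75109309-75109508, plus strand) and Mcm6 (chr1:128359706-128359905, minus strand) encode subunits of the helicase.
Ccnb2: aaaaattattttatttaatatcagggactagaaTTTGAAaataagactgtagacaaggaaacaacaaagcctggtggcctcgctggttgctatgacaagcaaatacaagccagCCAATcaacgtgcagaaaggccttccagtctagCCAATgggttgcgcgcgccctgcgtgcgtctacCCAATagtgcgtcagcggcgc
Top2a: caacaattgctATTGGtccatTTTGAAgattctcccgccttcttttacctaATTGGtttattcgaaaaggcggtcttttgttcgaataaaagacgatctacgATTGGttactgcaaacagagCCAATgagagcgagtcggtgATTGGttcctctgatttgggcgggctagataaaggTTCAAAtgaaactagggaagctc
Mki67: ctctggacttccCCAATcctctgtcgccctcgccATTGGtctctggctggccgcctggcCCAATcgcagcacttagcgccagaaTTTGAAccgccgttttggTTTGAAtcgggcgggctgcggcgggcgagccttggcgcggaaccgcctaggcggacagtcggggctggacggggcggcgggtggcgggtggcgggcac
Mcm5: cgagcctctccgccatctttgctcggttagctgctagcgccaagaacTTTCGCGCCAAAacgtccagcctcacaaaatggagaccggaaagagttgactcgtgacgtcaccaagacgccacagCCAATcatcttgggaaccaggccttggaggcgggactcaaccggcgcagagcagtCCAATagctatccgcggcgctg
Mcm6: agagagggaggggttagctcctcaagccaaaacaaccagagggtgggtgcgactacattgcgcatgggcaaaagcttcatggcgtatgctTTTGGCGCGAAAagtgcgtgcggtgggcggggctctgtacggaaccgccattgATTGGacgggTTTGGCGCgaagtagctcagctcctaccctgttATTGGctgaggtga

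Total counts lay between 43.66 and 58.19 M per library (1 M is 1000000 counts). The sample titles number the libraries, and these numbers follow the groups in 2 runs. Numbers 1 to 11 hold 3 young, 2 old and 5 old repopulated libraries. Numbers 12 to 24 hold 4 young, 3 old, 3 old repopulated and 3 young repopulated libraries, the last being numbers 22 to 24. Number 5 is not among the libraries used here. Within each run the numbers of the groups do not interleave, so library order and group cannot be told apart there. Genes with a rounded count above 0 numbered 16399 to 19953 per library in numbers 1 to 11 and 17620 to 22208 in numbers 12 to 24. Within the latter, young libraries had 21228 to 22078 and young repopulated ones 17620 to 20523. Young repopulated replicate 2 (17620) and old repopulated replicate 1 (18363) had the fewest of their groups, and old replicate 3 (22208) the most. The part of this in the members' levels was not tested. The 10 microglial markers, among them P2ry12 and Tmem119, summed to 25691 to 31201 CPM (counts per 1000000, scaled by TMM) in young, 22757 to 26371 in young repopulated, 10310 to 25622 in old and 9793 to 29060 in old repopulated libraries, and none was at 0 in a group. The 8 monocyte markers summed to 49.5 to 339, 185 to 413, 175 to 2923 and 133 to 3612 CPM in the same order, and the 7 markers of border-associated macrophages to 58.2 to 223, 295 to 411, 182 to 878 and 70.3 to 1235 CPM. The 10 markers of T and NK cells stayed at or below 5.45 CPM in every library.

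All members were detected in every group. Per kilobase of effective length, and averaged over the 23 libraries, Pcna, the sliding clamp of the replication fork, had the highest level at 116 CPM per kilobase, followed by the helicase subunit Mcm3 at 37.9, Top2a at 27.3 and Mcm6 at 26.4. The lowest levels were those of Mybl2, which encodes B-Myb, at 2.28 and of the licensing factor Cdc6 at 1.30 CPM per kilobase. Most members were low or high in the same libraries, and how closely they moved together was not tested. The summed level of all 41 members, dominated by the abundant genes, was 1213 to 1996 CPM in young, 666 to 1033 in young repopulated, 929 to 1604 in old and 519 to 2316 in old repopulated libraries, so that the old repopulated group held both the lowest and the highest library of the series. Old repopulated replicate 1 was the lowest library of its group for 41 of 41 members and replicate 8 the highest for 39. Old replicate 3 was the lowest of its group for 37 members, though the highest for Cdt1 (38.0 CPM). Young repopulated replicate 2 was the lowest of its group for 39, and young replicate 6 was the highest for 27. These libraries also differed in other marker sums. Old repopulated replicate 1 had the highest microglial sum of its group (29060 CPM) and the lowest monocyte sum (133 CPM), replicate 8 had the lowest microglial sum (9793 CPM) with a monocyte sum of 1711 CPM, and old replicate 3 had the lowest microglial (10310 CPM) and the highest monocyte sum (2923 CPM) of its group. The part of these cells in the members' levels was not tested. In bulk RNA, fewer dividing cells and less RNA per dividing cell cannot be told apart.

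**Figure D1:**
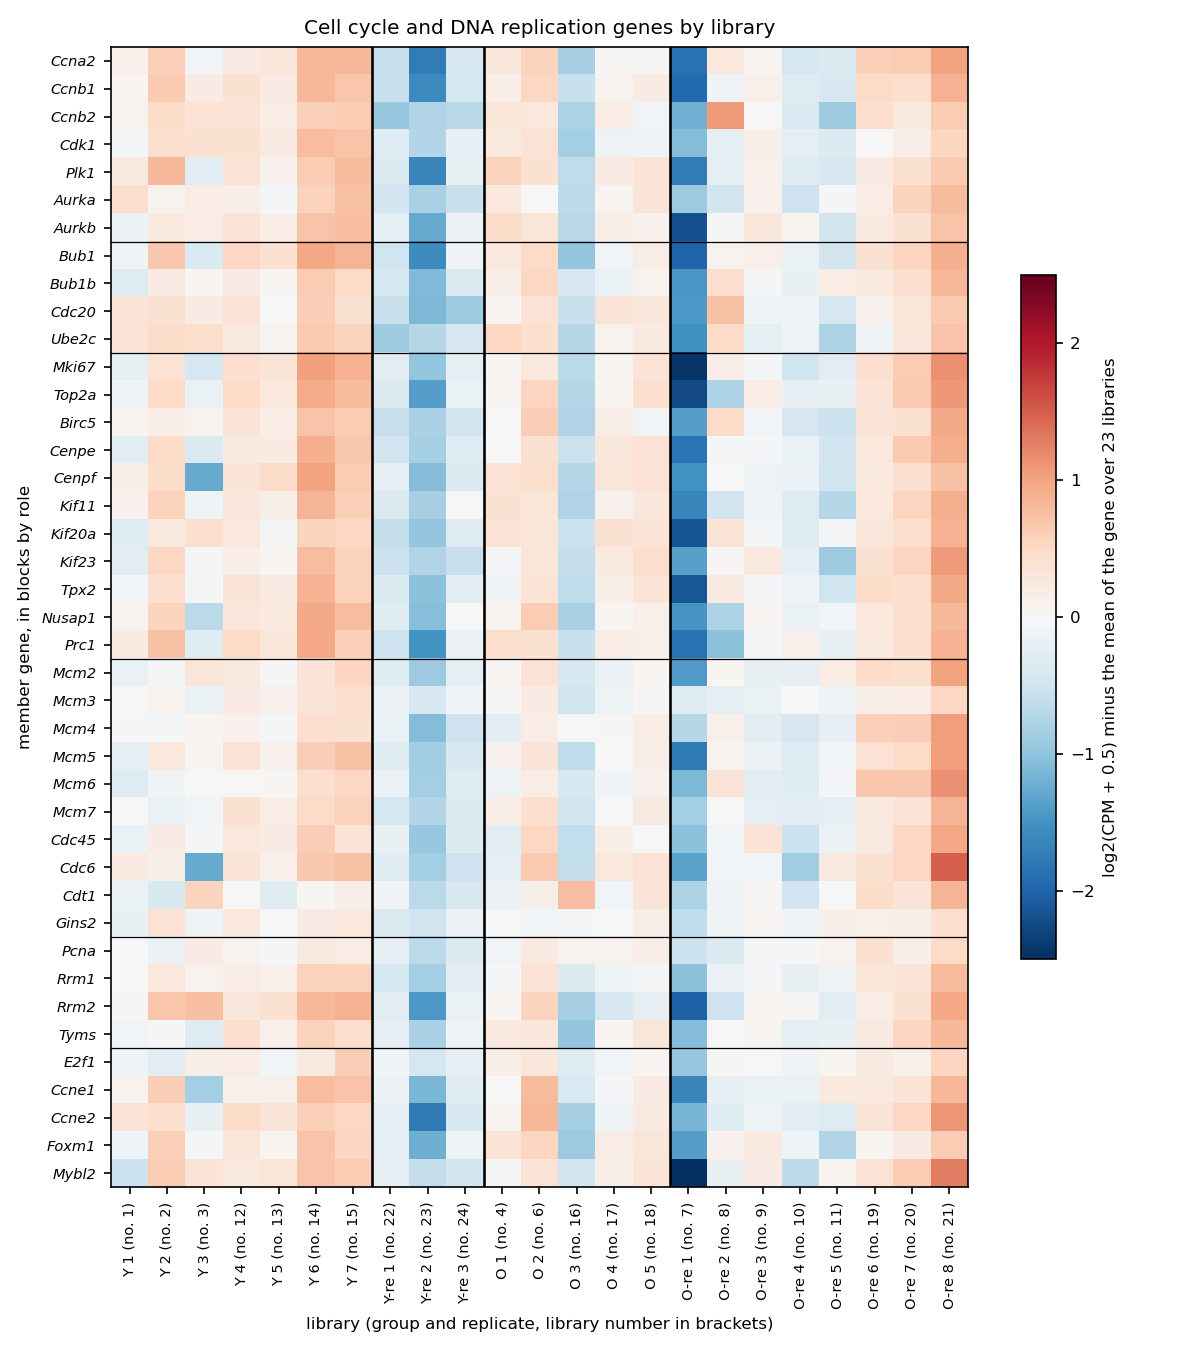
Level of each of the 41 members in each library as log2(CPM + 0.5) minus the mean of the gene over the 23 libraries. Rows are genes in blocks by role, columns are libraries in blocks by group with the library number in brackets, and colours stop at 2.5 on either side. Old repopulated replicate 1 is low and replicate 8 high down almost the whole column, and the 3 young repopulated columns are low.

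The first comparison asked how microglia that had returned in young mice differed from those never depleted. All 41 members were lower in the young repopulated group, with a median log2 fold change of -0.87 against -0.04 over all genes tested. No member passed an adjusted p of 0.05 in edgeR's quasi-likelihood test, the rule for a call used throughout, in a comparison where 1.34% of all genes were called in either direction. At an unadjusted p under 0.05, 31 of 41 members were lower, against 8.17% of all genes. For 23 members every young repopulated library lay below every young library, which held for 6.11% of all genes.

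The regulators of mitosis showed the largest differences. Ccnb1 encodes cyclin B1, the partner of Cdk1 at entry into mitosis (chr13:100778650-100786570, minus strand, GRCm38, as for the genes that follow). Its level was 16, 20.5 and 27.9 CPM (lowest, median, highest) in young and 10.5, 4.87 and 11.4 CPM in the 3 young repopulated libraries, which all lay below the young range. Its log2 fold change was -1.27 (edgeR adjusted p = 0.123, SE 0.40).

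Cdc20 activates the anaphase-promoting complex (chr4:118432901-118437352, minus strand), and of all members it had the smallest adjusted p. Its level was 12.8, 16.5 and 19.8 CPM in young and 8.52, 5.58 and 6.64 CPM in young repopulated libraries. The groups did not overlap, and the log2 fold change was -1.23 (edgeR adjusted p = 0.0616, SE 0.33). It was singled out for that p after its values were seen.

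Cdk1, the kinase that drives mitosis (chr10:69335146-69352938, minus strand), was at 23.9, 32.1 and 42.2 CPM in young and at 19.3, 14.4 and 21 CPM in young repopulated libraries. Again the 3 libraries lay below all 7 young ones, with a log2 fold change of -0.86 (edgeR adjusted p = 0.123, SE 0.27). Aurka, the aurora kinase of the spindle poles, was at 8.52 to 14.7 CPM in young and at 6.07, 4.75 and 5.76 CPM in young repopulated libraries.

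Among the 7 mitotic kinases and cyclins the median was -1.08 and 6 had groups that did not overlap. The exception was Plk1, polo-like kinase 1, at -1.08 (SE 0.41), with 9.09 to 19.8 CPM in young and 3.18 to 9.65 CPM in young repopulated libraries. Cyclin A2, Ccna2, which serves S phase and early mitosis, was at -1.25 (SE 0.43), and cyclin B2, Ccnb2, at -1.23 (SE 0.36). The 4 genes of the spindle checkpoint and anaphase (Bub1, Bub1b, Cdc20 and Ube2c) had a median of -1.11, and 3 of them did not overlap. Ube2c, the ubiquitin-conjugating enzyme that works with Cdc20, was at -1.10 (SE 0.35), and the checkpoint kinase Bub1, whose groups overlapped, at -1.12 (SE 0.46).

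The 11 genes of chromosome structure, spindle and cytokinesis had a median of -0.90, and 5 did not overlap. Mki67 (chr7:135689784-135716361, minus strand) was at 109.6, 189 and 298 CPM in young and at 119, 73.4 and 124 CPM in young repopulated libraries. For this proliferation marker 2 of the 3 libraries lay above the lowest young library, and the log2 fold change of -0.89 (SE 0.45) had a 95% interval from -1.78 to 0.004. Top2a, which untangles sister chromatids (chr11:98992943-99024189, minus strand), was at 74.5, 117 and 159 CPM in young and at 65.7, 31.8 and 74.0 CPM in young repopulated libraries. The highest of these 3 lay just under the lowest young library, and the log2 fold change was -0.98 (edgeR adjusted p = 0.304, SE 0.45).

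The other 9 of these genes lay between -1.12 and -0.77. Survivin, Birc5, a passenger of the chromosomes, was at 14.0 to 22.2 CPM in young and 7.40 to 9.45 CPM in young repopulated libraries, without overlap. Prc1, which bundles the microtubules of the central spindle, was at 16.8 to 41.3 and 7.09 to 19 CPM, with overlap, and had the largest difference of these genes at -1.12 (SE 0.42).

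The 2 lists of replication genes had smaller median differences than the 3 mitotic lists, a difference that was not tested, and single genes crossed this order, such as Rrm2 at -1.12 and Bub1b at -0.83. The 10 genes of origin licensing and the helicase had a median of -0.67, and 5 did not overlap. Mcm5 (chr8:75109569-75128439, plus strand) was at 35.2, 49.3 and 68.6 CPM in young and at 33.5, 22.4 and 30.9 CPM in young repopulated libraries. The 3 libraries lay below the young range, though replicate 1 only narrowly, and the log2 fold change was -0.82 (edgeR adjusted p = 0.274, SE 0.36). Mcm3 had the smallest difference of all members, at -0.37 (SE 0.17). Of the loading factors, Cdt1 was at -0.39 (SE 0.28) and Cdc6, whose young libraries ranged from 1.06 to 5.67 CPM, at -0.92 (SE 0.54), both with overlap. Gins2, a subunit of the GINS complex that joins the helicase, was at -0.47 (SE 0.16), with 1 young repopulated library inside the young range.

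The 4 genes of the replication clamp and nucleotide supply had a median of -0.67, and 3 did not overlap. Pcna (chr2:132249162-132253314, minus strand) was at 144, 168 and 185 CPM in young and at 133, 99.0 and 123 CPM in young repopulated libraries. The groups were apart, with a log2 fold change of -0.51 (edgeR adjusted p = 0.126, SE 0.16). The subunits of ribonucleotide reductase, Rrm1 and Rrm2, were at -0.78 (SE 0.25) and -1.12 (SE 0.42), and thymidylate synthase, Tyms, was at -0.56 (SE 0.32) with overlapping groups.

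The 5 genes of S-phase entry and mitotic transcription had a median of -0.85, and 2 of them had an unadjusted p under 0.05. E2f1, a factor of S-phase entry (chr2:154559407-154569892, minus strand), was at 16, 21.8 and 30.2 CPM in young and at 18.2, 14.3 and 16.8 CPM in young repopulated libraries. The groups overlapped, and its log2 fold change was -0.39 (edgeR adjusted p = 0.425, SE 0.22). Foxm1 and Mybl2 overlapped as well, at -0.79 (SE 0.35) and -0.89 (SE 0.59), and of this group of 5 the cyclin E gene Ccne2 was the only member without overlap, at -1.09 (SE 0.42).

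**Figure D2:**
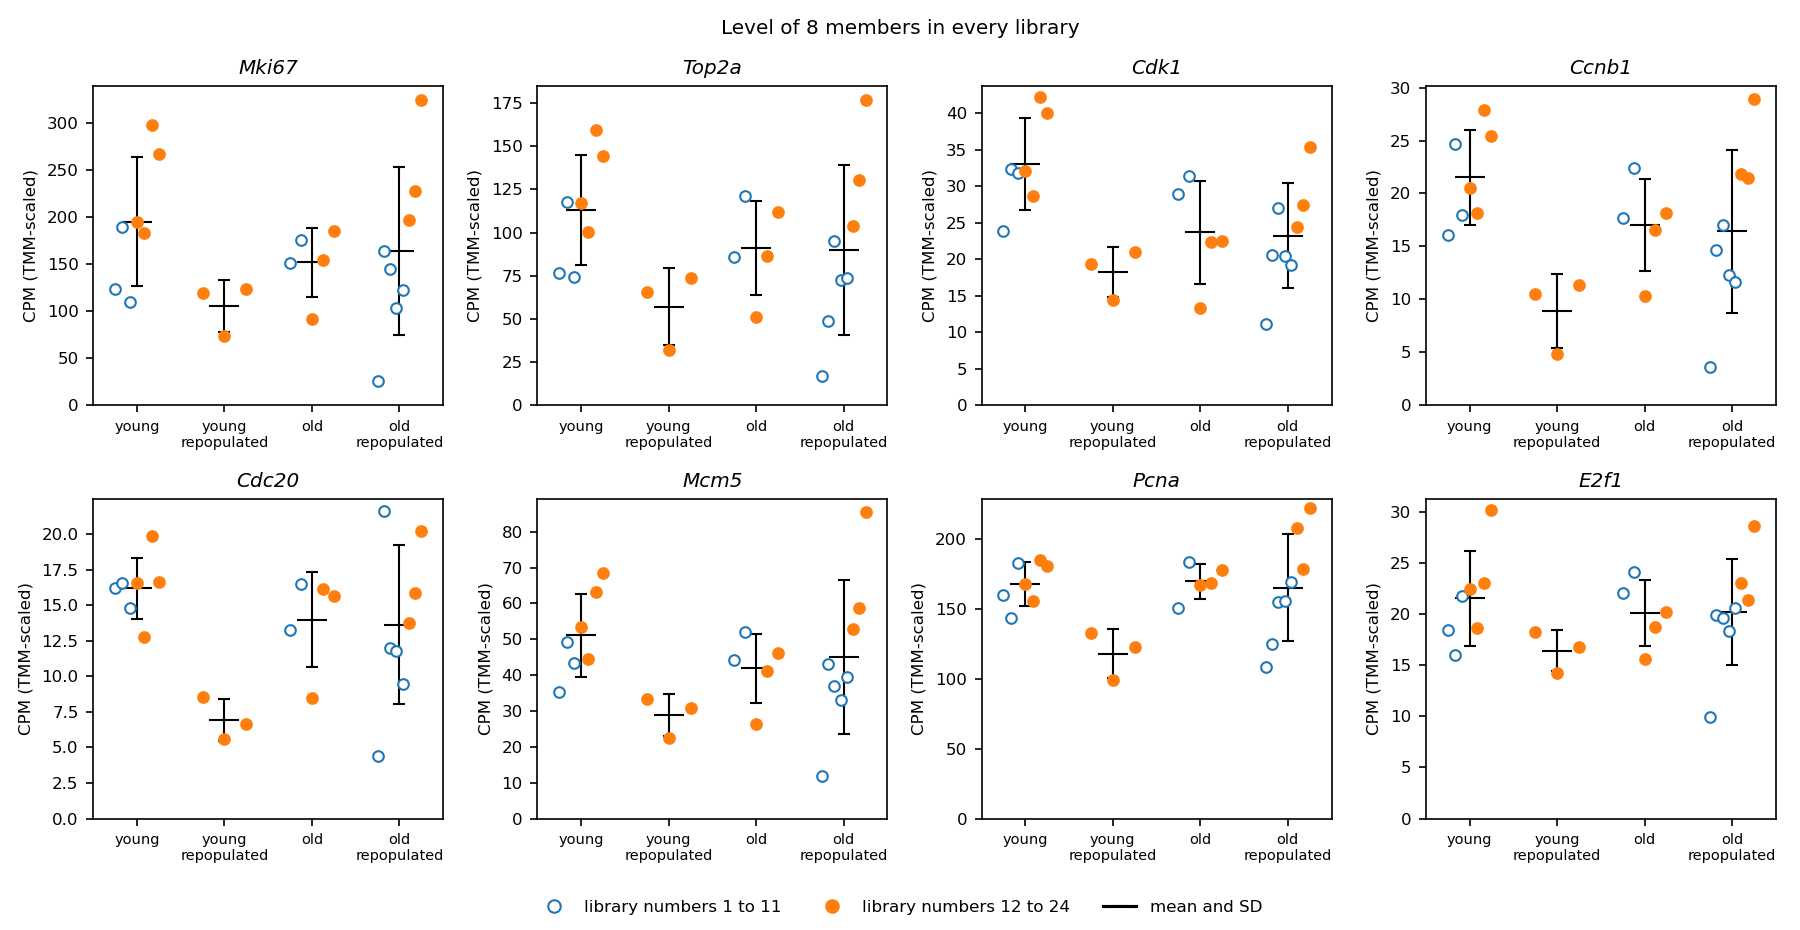
CPM of 8 members in every library (vertical axis from 0) by group, with the mean and SD in black; open points are library numbers 1 to 11 and filled points 12 to 24. The young repopulated mean is the lowest of the groups for each gene, though for Mki67 and E2f1 some of its points lie inside the young range. The old repopulated group spreads from the lowest to the highest values for Mki67, from 26.2 to 324 CPM.

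The number of members called in this comparison differed between the methods and the sets of libraries used, and the cause was not tested. Members called lower numbered 31 with limma's voom and sample quality weights (6.99% of all genes called lower), 9 with DESeq2 (2.54%), 20 in edgeR with only the young and young repopulated libraries (3.75%), 27 with only library numbers 12 to 24 (3.89%) and 3 with the run of library numbers as a block (Aurka, Cdc20 and Pcna; 0.817%). In edgeR with all libraries, leaving out old repopulated replicate 1 gave 5 calls, while without young repopulated replicate 2 the median was -0.65, 6 members were lower at an unadjusted p under 0.05 and none was called. Within numbers 12 to 24, leaving out that same library lowered the count from 27 to 4. For the fits that left out a library, the share of all genes is not given here. Young repopulated libraries also had border-associated macrophage sums of 295 to 411 CPM against 58.2 to 223 CPM in young, and monocyte sums of 185 to 413 against 49.5 to 339 CPM. The lists share F13a1, so their sums are not separate. By group mean, Cd163 of the first list (5.46 against 13.4 CPM) and Ly6c1 of the second (1.01 against 2.20 CPM) were lower, and the other markers were higher. The part of these cells in the result was not tested.

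The second comparison was between microglia of old and young mice that were never depleted. In all libraries 39 of 41 members were lower in old, with a median log2 fold change of -0.23 against -0.01 over all genes tested. No member was called, where edgeR called 2.83% of all genes. DESeq2 and voom called none either, and Cdk1 alone had an unadjusted p under 0.05. Cdk1 was at 29.0, 31.5, 13.3, 22.4 and 22.6 CPM in the 5 old libraries, overlapping the young range from 23.9 to 42.2 CPM, with a log2 fold change of -0.48 (edgeR adjusted p = 0.309, SE 0.22).

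This difference had opposite signs in the runs of library numbers. Within numbers 1 to 11, 33 of 41 members were higher in old, with a median of 0.17 and none called. Within numbers 12 to 24, 39 of 41 were lower, with a median of -0.50, and 3 were called lower (Cdk1, Mcm3 and Rrm2), where 5.28% of all genes were. Those calls were lost without old replicate 3, whose Cdk1 level of 13.3 CPM was the lowest of the group. The old libraries of the 2 runs differed among themselves. For 16 members every old library of the higher numbers lay below every old library of the lower numbers, against 12.4% of all genes. The difference between the runs was tested with 1 coefficient per group and run. It was negative for 40 of 41 members, with a median of -0.67, and 5 had an unadjusted p under 0.05, against 4.29% of all genes. No member and no other gene was called (smallest adjusted p among the members 0.423, edgeR).

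The third comparison was between returned and never depleted microglia in old mice. Over all libraries the members were balanced, 22 higher and 19 lower, with a median log2 fold change of 0.02, and no member was called, where 0.278% of all genes were. None reached an unadjusted p under 0.05, and DESeq2 and voom called none. The largest value was that of Mcm6, at 0.33 (SE 0.26). The balance itself rested on single libraries, since 36 of 41 members were higher without old repopulated replicate 1, and 38 were lower without replicate 8.

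For each gene given here the old repopulated group, the one with most libraries, covered the widest range of the 4 groups. Mki67 was at 152, 176, 91.9, 154 and 185 CPM in old and at 26.2, 154 and 324 CPM (lowest, median, highest) in old repopulated libraries, which lay on both sides of the old range. Ccnb1 was at 17.6, 22.4, 10.4, 16.6 and 18.1 CPM in old and at 3.65, 15.8 and 28.9 CPM in old repopulated libraries. Mcm5 was at 44.2, 51.9, 26.3, 41.1 and 46.0 CPM against 11.7, 41.3 and 85.4 CPM. For each of these 3 genes the old range lay inside the old repopulated range.

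Top2a showed the same width, at 85.9, 121, 50.9, 86.7 and 112 CPM in old and at 17.1, 84.3 and 177 CPM in old repopulated libraries. By the ratio of the highest to the lowest library, though not in CPM, Pcna was the narrowest of the genes followed here. It was at 151, 184, 167, 169 and 178 CPM in old and at 108, 162 and 222 CPM in old repopulated libraries. E2f1 was at 22.1, 24.1, 15.6, 18.7 and 20.2 CPM in old and at 9.94, 20.2 and 28.6 CPM in old repopulated libraries. The groups overlapped for each of these genes.

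**Figure D3:**
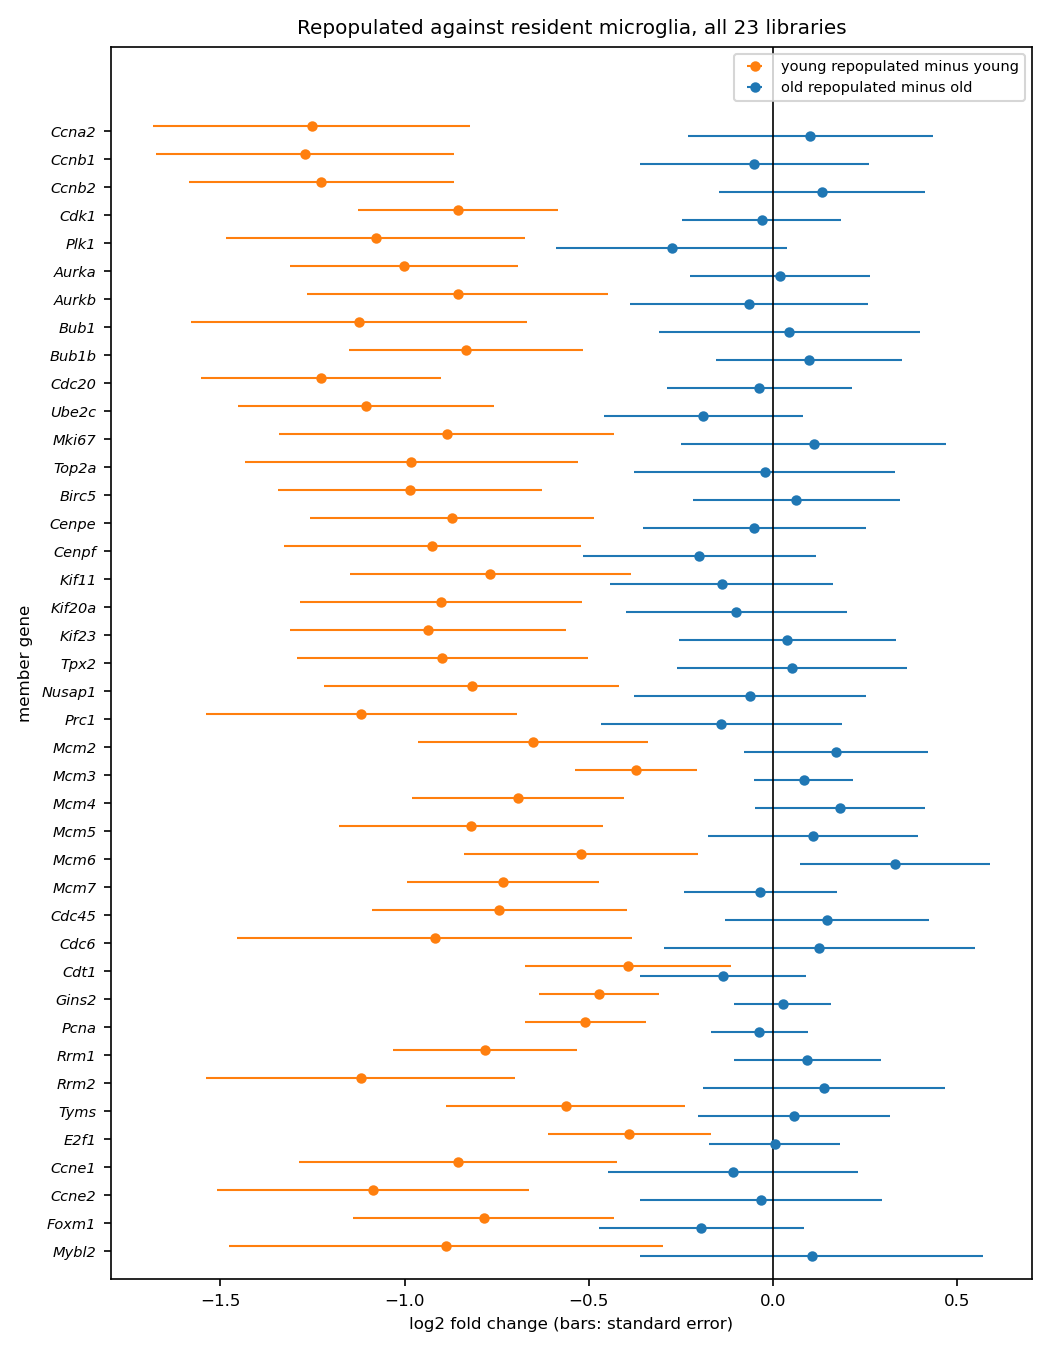
Log2 fold change (horizontal axis) of each member in the model of all 23 libraries, with its standard error as a bar. Young repopulated minus young (orange) lies below 0 for all 41 members, from -1.27 to -0.37, and old repopulated minus old (blue) lies on both sides of 0, from -0.28 to 0.33.

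Within the runs of library numbers, the old comparison went in opposite directions. Within numbers 1 to 11 all 41 members were lower in old repopulated than in old microglia, with a median of -0.58 and none called. Without old repopulated replicate 1 the median was -0.37, and 40 were lower. Within numbers 12 to 24 all 41 were higher, with a median of 0.62, and 4 were called (the helicase genes Mcm2, Mcm4 and Mcm6, and Rrm1), where 5.66% of all genes were called higher. Mcm6 was at 0.96 (edgeR adjusted p = 0.0149, SE 0.21) there and at -0.24 (SE 0.29) in the lower numbers. Called members numbered 2 on leaving out old replicate 3 and 0 on leaving out old repopulated replicate 8, given here without the share of all genes.

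In the same model with 1 coefficient per group and run, the difference between the runs was positive for all 41 members, with a median of 1.20, and 32 had an unadjusted p under 0.05, against 3.02% of all genes. No member and no other gene was called (smallest adjusted p among the members 0.672, edgeR). For 29 members all 3 old repopulated libraries of the higher numbers lay above all 5 of the lower numbers, against 12.8% of all genes. The 3 libraries of the higher numbers had microglial sums of 9793 to 14413 CPM and monocyte sums of 1168 to 3612 CPM, and the 5 of the lower numbers 15086 to 29060 and 133 to 1656 CPM. The part of these cells was not tested.

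**Figure D4:**
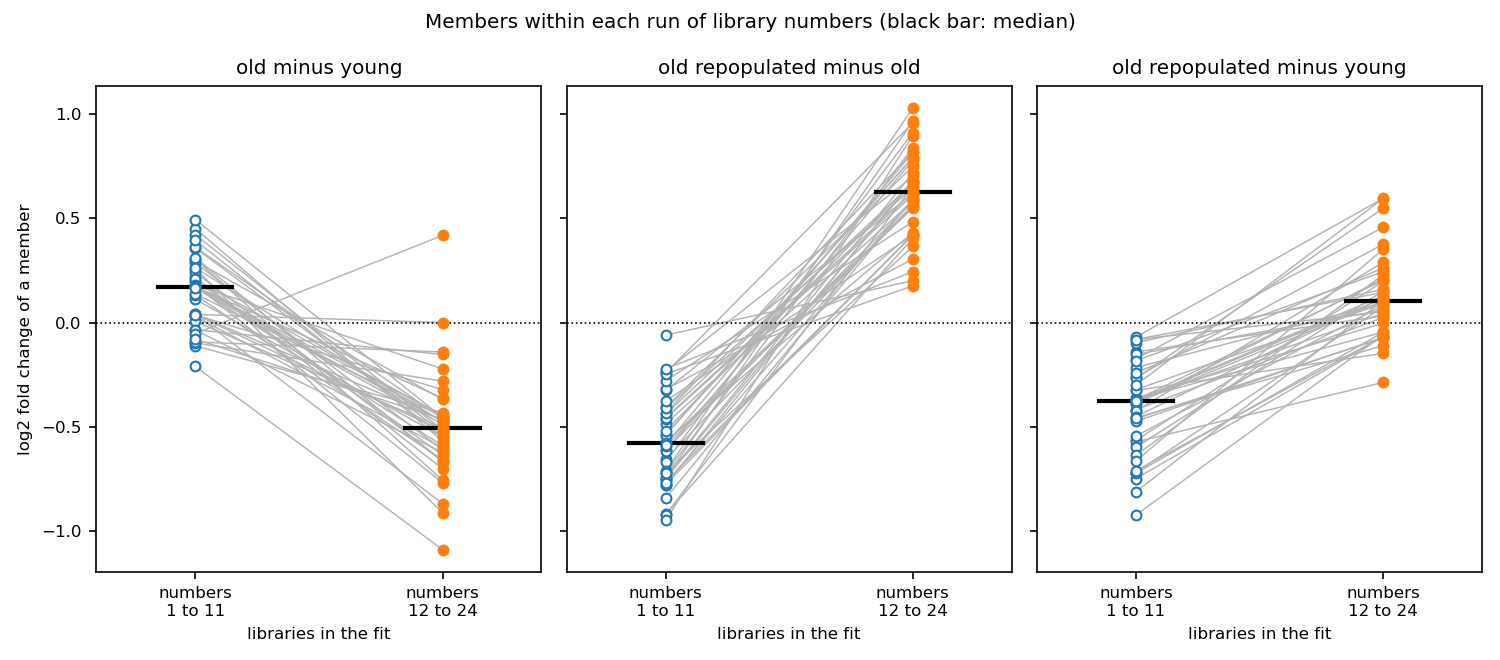
Log2 fold change of each member (points, joined by grey lines) in fits of library numbers 1 to 11 and of 12 to 24, for 3 comparisons, with the median as a black bar. Old repopulated minus old lies below 0 in the lower numbers and above 0 in the higher numbers for all 41 members.

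Returned microglia of old mice were next set against never depleted microglia of young mice. This comparison shares its libraries with those above, so it adds no independent evidence. Over all libraries 37 of 41 members were lower, with a median log2 fold change of -0.25 against -0.02 over all genes tested, and none was called although edgeR called 15.2% of all genes. Cdk1 alone had an unadjusted p under 0.05, at -0.51 (edgeR adjusted p = 0.0788, SE 0.19), and it passed the threshold in DESeq2, in voom, with upper-quartile scaling and without old repopulated replicate 8. The 10 genes of origin licensing and the helicase had a median of -0.05 here, and the mitotic kinases and cyclins one of -0.31. Within numbers 12 to 24, 30 of 41 members were higher, with a median of 0.10, and 3 replication genes were called higher (Mcm4, Mcm6 and Cdt1), where 21.9% of all genes were. None was called there without old repopulated replicate 8. Within numbers 1 to 11 all 41 were lower, with a median of -0.38, and none was called. The difference between the runs was positive for all 41 members, with a median of 0.50, and 4 had an unadjusted p under 0.05, against 9.65% of all genes. No member was called in that test (smallest adjusted p among the members 0.105, edgeR).

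Returned microglia of old and young mice were then compared directly. All 41 members were higher in old repopulated than in young repopulated libraries, with a median log2 fold change of 0.64 against 0.05 over all genes tested. Neither a member nor any other gene was called (0% of all genes). At an unadjusted p under 0.05, 15 members were higher, against 7.84% of all genes. Voom called 9 members, DESeq2 none, and edgeR with the run of library numbers as a block called 2, Mcm4 and Pcna. The share of all genes called in these fits is not given here, so these counts alone do not set the members apart. The young repopulated libraries all belong to the higher numbers. Within these, 40 of 41 members were called higher in old repopulated microglia, where 18.5% of all genes were, with a median of 1.12. The exception was Foxm1 (edgeR adjusted p = 0.106).

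Pcna had the smallest adjusted p in those numbers. It was at 208, 179 and 222 CPM in the 3 old repopulated and at 133, 99.0 and 123 CPM in the 3 young repopulated libraries, which were well apart (log2 fold change 0.76, edgeR adjusted p = 0.000752, SE 0.11). Mcm4, another subunit of the helicase, was at 1.31 (edgeR adjusted p = 0.000972, SE 0.21). Mki67 was at 197, 228 and 324 CPM against 119, 73.4 and 124 CPM, again without overlap (1.22, SE 0.29, edgeR adjusted p = 0.00693). The number called was 24 without old repopulated replicate 8 and 28 without young repopulated replicate 2. For these refits the share of all genes called is not given here. The marker sums of these 3 old repopulated libraries are given above, and the part of other cells was not tested.

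Whether repopulation had a different effect in old and young mice was tested as an interaction, the old difference minus the young difference. It was positive for all 41 members, with a median of 0.87, and 17 had an unadjusted p under 0.05, against 4.52% of all genes. No gene was called by edgeR (0% of all genes), and DESeq2 and voom called no member. Within numbers 12 to 24 the interaction was called for 37 members, where 4.11% of all genes were called positive, with a median of 1.60. Plk1, Cdt1, Tyms and Foxm1 were the 4 not called. Cyclin B1 had an interaction of 2.01 (edgeR adjusted p = 0.016, SE 0.41) and Ki-67 of 1.92 (edgeR adjusted p = 0.0176, SE 0.40) in that fit. Called members numbered 36 without old replicate 3, 23 without young repopulated replicate 2 and 14 without old repopulated replicate 8. These counts stand without the share of all genes called in the same fits. The interaction could not be tested in the lower numbers, which hold no young repopulated library.

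Other genes of the pathway, 121 in 4 lists, were all tested. In young repopulated against young microglia, 43 of 44 other mitosis genes were lower with a median of -0.81, and 40 of 44 other DNA replication genes were lower with a median of -0.39, and none of either list was called. The 25 G1 cyclins, kinases and pocket proteins had a median of -0.02, and the 8 inhibitors of cyclin-dependent kinases a median of 0.05. Members of these 2 lists lay on both sides of 0. In old repopulated against young microglia, 38 of the 44 other mitosis genes and 22 of the 44 other replication genes were lower. In each list 1 gene was called lower, where 5.92% of all genes were. The condensin gene Ncaph was lower by 0.62 on the log2 scale (edgeR adjusted p = 0.0247, SE 0.18). Timeless, whose protein protects the replication fork, was lower by 0.65 (edgeR adjusted p = 0.0374, SE 0.21). Both genes were named after their values were seen, and the calls held in 21 and 11 of the 23 fits that left out 1 library. In old repopulated against old microglia the 4 medians lay between 0.01 and 0.11.

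Single G1 regulators did pass the test. Cdkn2a encodes p16 and, from another reading frame, p19Arf, both brakes on division (chr4:89274471-89294653, minus strand), and the counts do not separate its transcripts. It was at 1.80, 2.46 and 3.44 CPM in young, 8.22, 11.1 and 7.66 CPM in young repopulated, 2.75, 4.25, 0.928, 2.24 and 2.17 CPM in old, and 4.06, 6.80 and 9.07 CPM in old repopulated libraries. Both repopulated groups were high, without overlap with young, while the lowest old repopulated library lay just under the highest old one. It rose in young repopulated microglia by a log2 fold change of 1.91 (edgeR adjusted p = 0.00218, SE 0.30) and in old repopulated microglia by 1.41 (edgeR adjusted p = 0.0305, SE 0.28). Between old and young microglia it was at 0.05 (SE 0.27), and between the 2 repopulated groups it was not called (edgeR adjusted p = 0.537). The first call held in each of the 23 fits that left out 1 library, and the second in 18 of 23. The second was lost with only the groups compared (edgeR adjusted p = 0.252), and it was lost without old replicate 1 (0.0659), 4 (0.126) or 5 (0.119) and without old repopulated replicate 4 (0.0545) or 8 (0.054), as edgeR adjusted p. Within numbers 1 to 11 it was 0.97 and not called, and within 12 to 24 it was 1.79 (edgeR adjusted p = 0.00837).

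The pocket protein gene Rbl2, which encodes p130, a partner of E2F factors in resting cells (chr8:91070057-91123844, plus strand), was at 46.1, 55.1 and 61.4 CPM in young and at 68.4, 78.7 and 70.5 CPM in young repopulated libraries. The groups were apart. It rose by a log2 fold change of 0.40 (edgeR adjusted p = 0.0227, SE 0.09), a call lost on leaving out young repopulated replicate 1 (0.0712), 2 (0.147) or 3 (0.0694), as edgeR adjusted p. In old repopulated against old microglia it was at -0.02 (SE 0.07).

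The D-type cyclins start the passage through G1, and 2 of their genes were called in comparisons with young microglia. Ccnd2 encodes cyclin D2 (chr6:127125162-127152193, minus strand). It was at 0.613, 1.20 and 3.81 CPM in young, 3.95, 12.1, 26.9, 8.33 and 13.4 CPM in old, and 1.88, 15.6 and 32.1 CPM in old repopulated libraries. All old libraries lay above all young ones, while the lowest old repopulated library lay inside the young range. It rose in old against young by a log2 fold change of 3.06 (edgeR adjusted p = 0.00769, SE 0.59) and in old repopulated against young by 3.37 (edgeR adjusted p = 0.000906, SE 0.57), and both calls held in each of the 23 fits that left out 1 library. Within numbers 1 to 11 neither was called, at 1.90 and 2.03.

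The level of Ccnd2 and the monocyte sum were both high in some libraries, picked here after their values were seen. Old replicate 3, with the highest monocyte sum of the group, had 26.9 CPM, and old repopulated replicates 6, 7 and 8 had 26.8, 25.9 and 32.1 CPM, while old repopulated replicate 1, with the lowest monocyte sum of its group, had 1.88 CPM. The orders were not the same throughout, since old replicate 5 had a higher monocyte sum (1458 CPM) than old repopulated replicate 7 (1168 CPM) but less Ccnd2. Border-associated macrophage sums were 878 CPM in old replicate 3 and 1235, 665 and 1191 CPM in old repopulated replicates 6, 7 and 8. The part of monocytes or of these macrophages in this result was not tested. Ccnd1, the gene of cyclin D1 (chr7:144929931-144939925, minus strand), was at 76.5, 88.3 and 109 CPM in young and at 115, 148 and 218 CPM in old repopulated libraries, without overlap. It rose by a log2 fold change of 0.78 (edgeR adjusted p = 0.00135, SE 0.14). Never depleted old libraries had 67.9 to 121 CPM, overlapping the old repopulated range. Without a call, Ccnd1 was at 0.19 in old against young (edgeR adjusted p = 0.636) and at 0.60 in old repopulated against old (edgeR adjusted p = 0.105). In young repopulated libraries it was at 145, 128 and 157 CPM, above all young libraries, with 0.66 and no call (edgeR adjusted p = 0.0731).

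Of the other 7 kinase inhibitors, 3 were called in old repopulated against young microglia, where 15.2% of all genes were. Cdkn1a, which encodes p21, was at 137, 219.6 and 248 CPM in young and at 193, 324 and 445 CPM in old repopulated libraries, which overlapped. It rose by 0.62 (edgeR adjusted p = 0.0179, SE 0.17), but was at 0.18 within numbers 1 to 11 and at 1.12 within numbers 12 to 24. Never depleted old libraries were as high, at 222 to 406 CPM. Old against young was at 0.67 (edgeR adjusted p = 0.0546), and old repopulated against old at -0.06. Cdkn1b, which encodes p27, rose by 0.32 (edgeR adjusted p = 0.0205, SE 0.09). Without a call, it was at 0.29 in old against young and at 0.39 in young repopulated against young. Cdkn1c, which encodes p57, fell by 1.44 on the log2 scale (edgeR adjusted p = 0.0454, SE 0.48), a call that held in 6 of the 23 fits that left out 1 library. Also without a call, Cdkn1c was at -0.91 in old against young and at -1.73 in young repopulated against young. Cdkn2c, Cdkn2d, Cdkn2b and Cdkn3 were not called in any of the 6 contrasts.

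**Figure D5:**
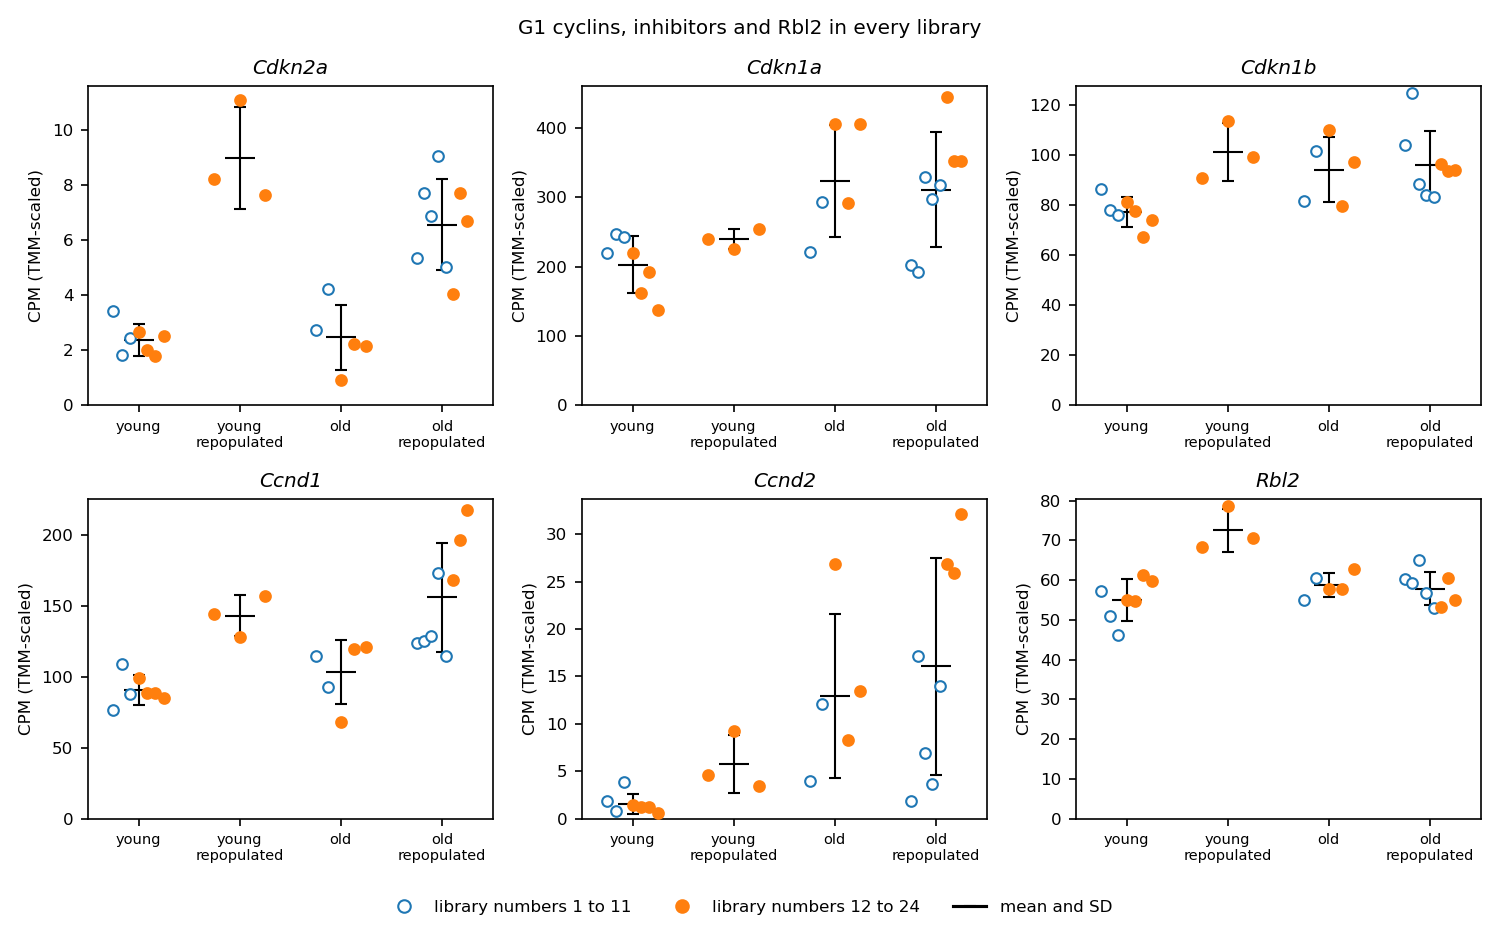
CPM of 6 regulators of G1 in every library (vertical axis from 0) by group, with the mean and SD in black; open points are library numbers 1 to 11 and filled points 12 to 24. Cdkn2a is high in both repopulated groups, 7.66 to 11.1 CPM in young repopulated against 1.80 to 3.44 CPM in young libraries, and Ccnd2 reaches 32.1 CPM in an old repopulated library.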

How the data were processed

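Microglial mRNA was measured in 23 libraries of 4 groups. The libraries were stranded and poly(A) selected, from 2.4 to 147 ng of input RNA, and read from 1 end over 50 nt, per the labels' protocols. Per the submitters' processing notes, FastQC 0.11.5, STAR, RSEM, limma and build GRCm38 were used. Which annotation was counted, and whether by strand, is not given in the sources used here. For each library the authors deposited 1 table, and the expected count column, estimated per gene per the file headers, was used. Reads of similar, overlapping or antisense genes may be divided between them. All were rounded, and 87.3% were already whole to within 1e-06. The deposited effective length of each gene served for levels per kilobase.

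Tests were run with edgeR 4.0.16 in R 4.3.3 (filterByExpr, TMM, glmQLFit and glmQLFTest), with all 23 libraries in 1 model and 1 coefficient per group. The 6 contrasts were tested, with Benjamini-Hochberg adjustment over 18720 genes and a call under 0.05. The members and lists were chosen with earlier results of these data known. All members could be named, values in every library were set for 7 genes, and other cell cycle genes were named if called (at most 4 per contrast, beside all CDK inhibitors). Kif11 has 2 rows with the same values, so its level is their sum and its test uses the first. Alternatives were RLE and upper-quartile scaling, other filters, robust dispersion, DESeq2 1.42.0, voom (limma 3.58.1), only the groups compared, the run of library numbers as a block or alone, and leaving out each library. Chosen after seeing the data were fits within a run that left out 1 library, and the test of the difference between runs. No replicates held identical values, and the smallest chi-square per degree of freedom between replicates was 17.7. Coordinates are from GENCODE M21 where the gene version is identical, and promoters from RefSeq.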

Additional observations from a re-analysis of the deposited data

Results flagged for a closer look

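Within groups of 4 to 10 libraries, 150 sets of values of members and named cell cycle genes were examined for a library far from the rest, and 8 held one; chance marks about 1 in 20 such sets. In old replicate 3, Cenpf, a centromere protein, was at 13.8 CPM where the nearest old library had 28.3, Kif20a, a motor of cytokinesis, at 11 where the nearest had 20.1, Tyms at 5.55 where the nearest had 11.8, and the condensin gene Ncaph at 15.7 where the nearest had 25.7. In old repopulated replicate 8, Cdc6 was at 10.1 CPM, and the nearest library was at 4.82. Old repopulated replicate 1 held Cdkn1c at 6.02 CPM, and the nearest library was at 1.80. In young replicate 3, Ccne2 was low at 6.79 CPM (nearest 9.85) and Ccnd2 high at 3.81 CPM (nearest 1.81), and that library also had the highest monocyte marker sum of the young group, 339 CPM.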

How the results depend on the processing

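No paired analysis was possible because replicate numbers were given in accession order and pair no samples. The direction of all 41 members in young repopulated against young, in old repopulated against young repopulated and in the interaction held under every alternative run. Counts of members called did not. Those below stand without the share of all genes called in the same fit, which is given above for part of them. Young repopulated against young gave 0 over all libraries, 1 with a mean of at least 1 CPM, 3 with the library number block, 9 with DESeq2, 31 with voom, 20 with only the groups compared and 27 within numbers 12 to 24 (there 39 without old replicate 3, 4 without young repopulated replicate 2 and 28 without old repopulated replicate 8), and from 0 to 5 on leaving out 1 library. Old against young gave 3 within numbers 12 to 24 and, without the same libraries in turn, 0, 6 and 4. Old repopulated against old gave 4, then 2, 8 and 0, and its median was -0.58 in the lower and 0.62 in the higher numbers. Old repopulated against young gave 1 with upper-quartile factors, DESeq2 or voom, 3 within numbers 12 to 24, then 3, 4 and 0, and from 0 to 1 on leaving out 1 library. Old repopulated against young repopulated gave 2 with the block, 9 with voom and 40 within numbers 12 to 24, then 41, 28 and 24, and the interaction 37, then 36, 23 and 14. The cause was not tested.

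Over the members and all alternatives, the sign differed from that over all libraries in 79 of 1558 refitted values of old against young, 222 of 1558 of old repopulated against old and 136 of 1558 of old repopulated against young, and in 0 for the other 3 contrasts. Among values that passed the threshold in either fit, those that turned were Pcna in old repopulated against young, -0.02 over all libraries and 0.24 within numbers 12 to 24 without young repopulated replicate 2, and Cdkn1c in old repopulated against young repopulated, 0.29 over all libraries and -1.78 within numbers 12 to 24 (-1.78, -1.98 and -1.65 without the same 3 libraries). Without passing the threshold, Cdkn1c was also at -0.83 with the block, -0.89 with voom and -0.42 without old repopulated replicate 1. Precision is limited by 3 young repopulated libraries, all of the higher numbers.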
